A study of Mus musculus with 6 samples.

Results

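The genes that flank Selenoo on mouse chromosome 15 were compared between livers with and without a hepatocyte knockout of Selenoo. Members were taken by position: every gene of the deposited table on the chromosome of Selenoo with a start in the 2.2 Mb from 88000000 on (GRCm38), with Creld2 left out. These were 32 of the 16140 genes in the table, namely Selenoo and 31 flanking genes, 7 at lower and 24 at higher coordinates. The choice was by position except for Creld2, left out by name, and it was made with earlier results of these data known. Creld2 is a gene of the same interval that was called lower in knockout livers (adjusted p = 0.0451, edgeR). Counts of called members therefore apply to the interval without it.

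Both groups of mice carried floxed Selenoo alleles (Selofl/fl in the labels). The knockouts also carried Alb-Cre, a recombinase driven by the albumin promoter, which is active in hepatocytes, and the controls had no Cre. Each group had 3 libraries of poly(A)-selected RNA from whole liver of mice on a normal diet, and age and sex are not in the labels used here. Effects of Cre and of the lost gene cannot be told apart, cells other than hepatocytes are expected to keep the gene, and the labels do not say that each library is a separate mouse, so the p-values refer to the spread among these libraries, which may be technical.

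Selenoo encodes SelO, a mitochondrial selenoprotein with a protein kinase fold that transfers AMP to its substrates. Conditional alleles are made by placing loxP sites around exons, and Cre then removes the DNA between them. Such a deletion lies in a row of other genes, so the expression of neighbours is a standard check on a knockout: neighbours can share promoters, overlap at their ends or be read through from one gene into the next. In this stretch the genes are closely spaced and mostly unrelated in function. They include kinases, a glycosylation enzyme, a condensin subunit and a copper chaperone of the respiratory chain.

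The start regions of pairs that share one are given first, because the text below compares the genes on either side. They are RefSeq windows on GRCm38.p6 that run from 250 bases before to 50 bases after a gene's start, and 28 of the 32 members had one. The Alg12 window lies at chr15:88819269-88819568 on the minus strand, and Creld2 starts 328 bases away and runs in the opposite direction. Capitals mark the endoplasmic reticulum stress element, CCAAT and CCACG with 9 bases of any kind between them, which was searched on both strands and begins 220 bases before the Alg12 start. The Lmf2 window lies at chr15:89355610-89355909 on the minus strand, and Ncaph2 starts 60 bases from Lmf2 in GENCODE and runs the other way. Its capitals mark the cyclic AMP response element TGACGTCA, 63 bases before the Lmf2 start. The Pim3 window (chr15:88861944-88862243, plus strand) belongs to the flanking gene with the smallest p, and its capitals mark GC boxes (GGGCGG or its reverse complement).
Alg12: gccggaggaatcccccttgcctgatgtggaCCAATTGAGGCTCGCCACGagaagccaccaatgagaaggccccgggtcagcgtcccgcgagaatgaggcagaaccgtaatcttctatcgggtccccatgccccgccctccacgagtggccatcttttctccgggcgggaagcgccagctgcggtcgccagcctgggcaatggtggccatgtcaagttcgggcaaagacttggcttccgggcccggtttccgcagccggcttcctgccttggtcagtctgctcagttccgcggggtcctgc
Lmf2: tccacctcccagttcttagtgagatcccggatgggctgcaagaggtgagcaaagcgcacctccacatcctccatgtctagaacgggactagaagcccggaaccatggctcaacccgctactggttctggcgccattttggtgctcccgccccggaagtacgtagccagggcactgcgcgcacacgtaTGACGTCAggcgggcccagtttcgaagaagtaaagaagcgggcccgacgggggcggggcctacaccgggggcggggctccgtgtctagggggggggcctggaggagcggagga
Pim3: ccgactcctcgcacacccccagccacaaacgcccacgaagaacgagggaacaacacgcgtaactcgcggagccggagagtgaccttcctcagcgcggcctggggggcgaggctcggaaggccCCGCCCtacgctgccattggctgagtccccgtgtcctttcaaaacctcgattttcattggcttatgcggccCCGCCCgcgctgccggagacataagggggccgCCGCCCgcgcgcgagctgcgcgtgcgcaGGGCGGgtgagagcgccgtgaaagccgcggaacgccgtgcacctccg

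Among 28 members with a window, Alg12 was the one that held the stress element, which 0.119% of all 32851 windows held. The cyclic AMP response element stood in the windows of Lmf2 and Ncaph2, which overlap, and in 1.79% of all windows. GC boxes were in the windows of 21 of the 28 members and in 35.7% of all windows. An E-box (CACGTG) was in those of Arsa, Mapk12 and Sco2 (7.15% of all windows) and a forkhead element (GTAAACA) in 0 of 28 (3.65%). Members are counted as genes with a match in any of their windows, and the percentages are over single windows, of which a gene can have several. The shares are thus not in the same unit. A match is a string of letters in a window and was not tested as a site.

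Totals of estimated counts ran from 15550287 to 18680196 per library, and 12173 genes had enough counts to be tested. Selenoo and 25 of the 31 flanking genes were among them. The tissue label was checked against fixed markers: 8 hepatocyte genes summed to between 103839 and 126195 FPKM (fragments scaled to transcript length and library size) in every library, and 0 of the 8 were absent. For some other cell types the summed markers did not overlap between the groups. The summed FPKM of 4 T and NK cell markers was 4.19 to 8.86 in controls and 1.87 to 3.88 in knockouts, that of 3 B cell markers 3.93 to 9.34 and 1.57 to 3.87, and that of 6 endothelial markers 124 to 147 and 104 to 122, with Lyve1 called lower. Of single markers, 0 of 3 tested T and NK cell genes and 0 of 2 tested B cell genes were called, and Lyve1 was 1 of 6 endothelial genes. Clec4g was the largest part of the endothelial sum, with means of 91.6 FPKM in controls and 76.8 in knockouts (adjusted p = 0.522, edgeR). Kdr had a positive log2 fold change (0.28) and the other endothelial markers negative ones. Among single genes, groups did not overlap in 25.2% of all tested. The hepatocyte gene Serpina1a was called higher (log2 fold change 0.94, adjusted p = 0.0198, edgeR). Over all tested genes 1.49% were called. For 6 Kupffer, 6 stellate and 5 cholangiocyte markers the groups overlapped. No marker on these lists was at 0 throughout. Their part in the values of the flanking genes was not tested, and in bulk tissue fewer cells of a type and less RNA per cell cannot be told apart.

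Selenoo (NCBI Gene 223776, 89089038 to 89100339, plus strand) had CPM, counts scaled to library size, of 94.8, 84.2 and 96.0 in controls against 6.29, 9.31 and 7.67 in knockouts. All 3 knockout libraries lay far below all 3 controls. Its log2 fold change was -3.56 ± 0.17 (SE), a fold of 0.0846 with a 95% interval of 0.0648 to 0.111 (adjusted p = 4.64e-05, edgeR's quasi-likelihood test). Per length, Selenoo ranked 2 of the 32 genes in control livers, at 42.9 ± 2.29 FPKM (SD, n = 3), and 14 in knockout livers, at 3.50 ± 0.643 FPKM.

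Of the 25 flanking genes tested, 0 were called at an adjusted p of 0.05 by edgeR's quasi-likelihood test, against 1.49% of all tested genes (181 of 12173). Pim3, Ttll8, Alg12 and Brd1, 4 of the 25, had an unadjusted p under 0.05, as did 18.5% of all tested genes. Groups did not overlap in 5 of the 25, these 4 and Ppp6r2, where the share over all tested genes was 25.2%. DESeq2 called 1 of the 25, Pim3 (5.26% of all its genes), and a q under 0.05 was given to 1 of the 31 flanking genes in the authors' deposited table, again Pim3 (3.47% of all genes). These shares, from all 6 libraries, lie near or under the background. Left out one at a time, 2 libraries gave calls in edgeR. Without control replicate 1, Pim3 and Cpt1b were called (2 of 25, against 361 of 12335 over all genes), which is above the share over all genes. Without control replicate 3, Pim3 was called (1 of 25, against 668 of 12332). The fold was under 1.5 in either direction in 21 of the 25 genes, and the 95% interval of the fold stayed within 2-fold either way in 19 of the 25. The median absolute log2 fold change was 0.24 over the flanking genes and 0.22 over all tested genes, so the flanking genes were not less changed than others.

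**Figure D1:**
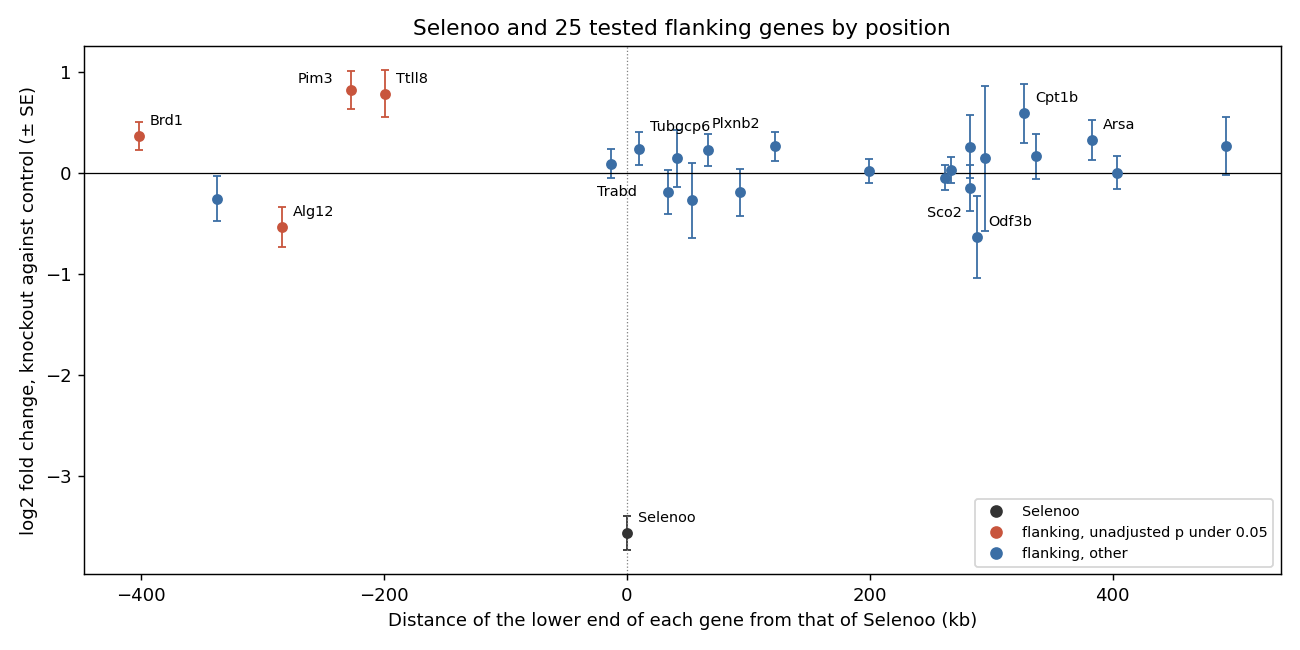
log2 fold change (knockout against control, ± SE) of Selenoo and the 25 tested flanking genes against distance from Selenoo in kb. Selenoo stands alone at -3.56, the 5 genes within 50 kb lie between -0.27 and 0.24, and the 4 genes with an unadjusted p under 0.05 lie at lower coordinates.

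The nearest genes were Trabd and Tubgcp6. Trabd, which encodes a protein with a TraB domain, ends 1.96 kb before Selenoo starts (89076051 to 89087075, plus strand) and is read in the same direction. It had CPM of 74.4, 91.2 and 97.6 in controls against 98.8, 92.9 and 88.8 in knockouts. The lowest of the 6 libraries was control replicate 1, and the groups overlapped. The fold was 1.07, with a 95% interval of 0.855 to 1.33 (adjusted p = 0.754, edgeR). Per length, Trabd stood next to Selenoo in control livers, at 41.2 ± 7.28 FPKM (SD, n = 3), a gap smaller than its spread. In knockout livers it was at 42.0 ± 3.37 FPKM.

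Tubgcp6 encodes a subunit of the gamma-tubulin ring complex, which starts microtubules. It lies on the minus strand (89099097 to 89123208), tail to tail with Selenoo, and the gene bodies overlap by 1243 bases, of which 998 are exon in both genes in GENCODE. Its counts were 160, 169 and 159 in controls against 226, 168 and 190 in knockouts, and its CPM were 10.7, 8.73 and 8.25 against 12.1, 9.60 and 10.8. The groups overlapped, and the fold was 1.18 (0.913 to 1.52, adjusted p = 0.461, edgeR). The log2 value of 0.24 ran from 0.15 without knockout replicate 1 to 0.35 without control replicate 1. Of the counts of both genes together, Tubgcp6 held 7.91% to 10.2% in controls and 50.8% to 65.9% in knockouts, as those of Selenoo fell. The deposited counts of both were whole in all 6 libraries, so the counts show no division of reads between them, although the strand setting of the counting is not given in the sources used here.

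Hdac10, a deacetylase of polyamines, and the p38 kinase genes Mapk12 and Mapk11 complete the genes within 50 kb. Hdac10 lies on the minus strand, with a gap of 23.0 kb between its body and that of Selenoo. It had CPM of 8.59, 6.82 and 6.79 in controls against 5.37, 8.63 and 5.46 in knockouts. The fold was 0.878 (95% interval 0.626 to 1.23, adjusted p = 0.669, edgeR). Knockout replicate 2 was at the level of the highest control, and the log2 value of -0.19 became -0.45 without it (unadjusted p = 0.058, adjusted p = 0.430, edgeR). It was -0.066 without knockout replicate 1, -0.077 without knockout replicate 3 and -0.071 without control replicate 1. Mapk12 had 3.96, 2.43 and 1.87 CPM in controls against 2.74, 3.09 and 3.18 (fold 1.10, 0.712 to 1.71), and its log2 value of 0.14 ran from -0.071 (control replicate 3 left out) to 0.48 (control replicate 1 left out), with 0.066 when control replicate 2 was left out. Mapk11 was low, with 14 to 18 counts per control and 9 to 18 per knockout library (fold 0.828, 0.465 to 1.48). The interval of Mapk11 is the widest of the 5 genes near Selenoo, and its log2 value of -0.27 ran from -0.54 (knockout replicate 2 left out) to -0.055 (knockout replicate 3 left out). It was -0.12 with control replicate 1 left out and -0.43 with control replicate 2 left out. All 5 genes within 50 kb had groups that overlapped, with 3 values above and 2 below 0, and their median was 0.092 on the log2 scale. Groups did not overlap in 25.2% of all tested genes, so overlap in these 5 does not set them apart.

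Farther away at lower coordinates lay the flanking gene with the smallest p. Pim3 (88862194 to 88865726, plus strand, 223 kb from Selenoo) encodes a serine/threonine kinase that promotes survival and growth. It had CPM of 72.5, 74.9 and 46.0 in controls against 118, 111 and 111 in knockouts. All 3 knockouts lay above all 3 controls and close together, while control replicate 3 was lower than the other controls. The means were 64.4 ± 16.1 and 113 ± 3.95 CPM (SD, n = 3), a log2 fold change of 0.82 ± 0.19 (SE) and a fold of 1.76 (95% interval 1.32 to 2.36). In edgeR's test the p was 0.00161 and the adjusted p 0.0657, so Pim3 missed the threshold. It passed with DESeq2 (adjusted p = 0.00229), without the low-count filter (0.0384), without control replicate 1 (0.0466) and without control replicate 3 (0.0300, at a log2 value of 0.63), and in the authors' deposited table (q = 0.00305). Without single other libraries and with other tools the adjusted p ran up to 0.221. Its neighbour Gm33049, a predicted gene that overlaps it by 313 bases, shared reads with it and was assigned at most 2.11 counts per library.

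Ttll8 (88889778 to 88955051), which encodes an enzyme that adds glycine to tubulin in cilia, lies between Pim3 and Selenoo. Its CPM were 5.37, 2.84 and 4.41 in controls against 8.33, 6.63 and 6.59 in knockouts. No knockout library came down to the control range, but the spread was wide for a gene with 55 to 155 counts per library. The log2 fold change of 0.78 ± 0.23 (SE) did not pass (adjusted p = 0.128, edgeR). Brd1 (88687034 to 88734228), a bromodomain scaffold of a histone acetyltransferase complex, had 14.6, 17.9 and 17.5 CPM in controls against 23.0, 19.9 and 21.4 in knockouts (log2 fold change 0.36 ± 0.14, adjusted p = 0.204, edgeR). Control replicate 1 was its lowest library. Zbed4, a zinc finger gene next to Brd1, had a log2 fold change of -0.26 ± 0.23 (adjusted p = 0.563) and groups that overlapped.

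Alg12 (88805243 to 88819318, minus strand) encodes a mannosyltransferase that builds the lipid-linked sugar for N-glycosylation in the endoplasmic reticulum. It had CPM of 8.79, 7.91 and 5.81 in controls against 5.27, 4.40 and 5.80 in knockouts. The groups were separated only by the small gap between 5.81 in control replicate 3 and 5.80 in knockout replicate 3. The log2 fold change was -0.54 ± 0.20 (SE), a fold of 0.690 (95% interval 0.506 to 0.940), and the adjusted p from edgeR was 0.199. Creld2, the stress-induced chaperone gene that starts on the other side of the printed window, had 55.0, 134 and 43.8 CPM in controls against 25.2, 18.1 and 15.3 in knockouts (log2 fold change -1.99 ± 0.39, adjusted p = 0.0451, edgeR). Both genes had negative values, and that of Creld2 passed the threshold.

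The stress element printed in the Alg12 window is the binding site of ATF6 and its partner NF-Y in textbook accounts of the unfolded protein response. Over the whole table, 37 genes held the element in a window and 18 of them were tested, Alg12 and Creld2 among them by the same stretch of DNA. Of the 18, 16 were below and 2 above 0, with a median of -0.59 on the log2 scale against -0.018 over all 12173 tested genes. At the threshold of edgeR's test, an adjusted p of 0.05, 3 were lower and 0 higher, where 0.715% of all tested genes were lower. These were Creld2, Hspa5 (-1.11), which encodes the chaperone BiP, and the calcium-binding chaperone gene Calr (-0.83). The group was formed with the lower stress genes of these libraries already known, so its direction is a description and no independent evidence.

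At higher coordinates the 19 tested genes had a median log2 fold change of 0.14, and 0 reached an unadjusted p under 0.05. At lower coordinates 4 of 6 did, where the share over all tested genes was 18.5%. The division by side was made after the values were seen, and an effect of position was not tested. Pim3, Ttll8, Alg12 and Brd1 lie 134 to 355 kb from Selenoo, with both signs among them. The other tested genes on that side were Zbed4 and the nearer Trabd.

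**Figure D2:**
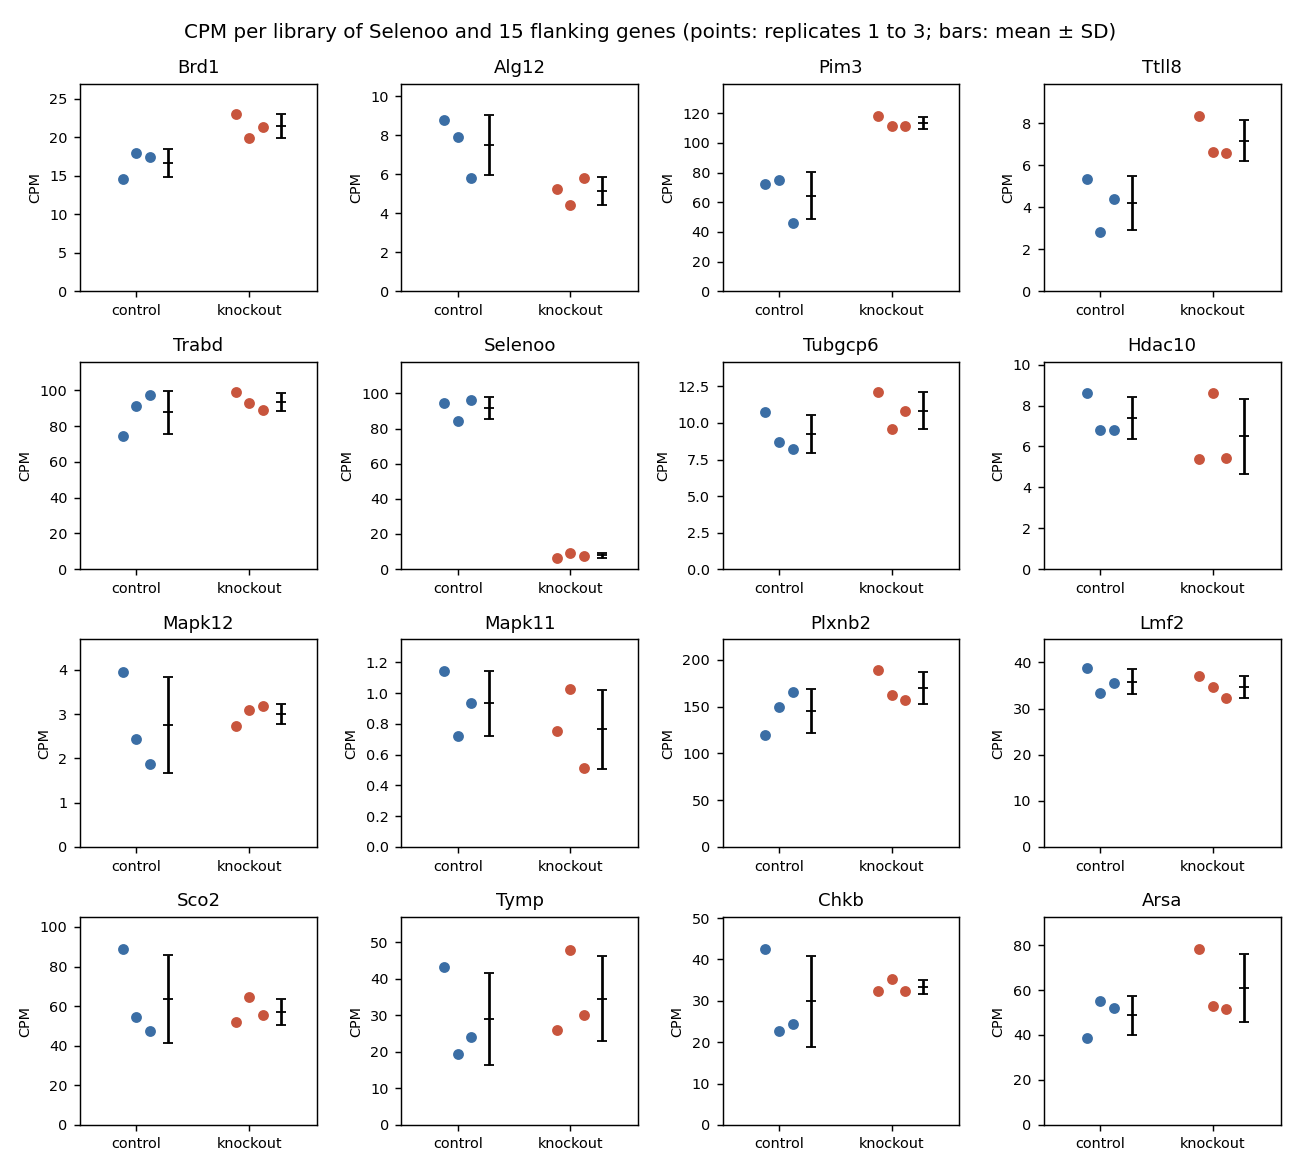
CPM in each of the 6 libraries for Selenoo and 15 flanking genes in order of position, with the mean ± SD (n = 3) beside the points. The groups are apart in Selenoo, Pim3, Ttll8, Brd1 and, narrowly, Alg12, and they overlap in the other 11 genes.

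Signalling genes on the higher side included Plxnb2, a receptor for semaphorins, which was the flanking gene with the most counts. It had CPM of 120, 150 and 166 in controls against 190, 163 and 157 in knockouts, with overlap of the groups (fold 1.17, 95% interval 0.913 to 1.497, adjusted p = 0.468, edgeR). Ppp6r2, a regulatory subunit of protein phosphatase 6, was at 18.3, 24.0 and 24.5 CPM against 26.4, 26.3 and 27.4. Its groups did not overlap, though control replicate 1 stood below the rest, and its adjusted p was 0.360. Sbf1, a catalytically inactive relative of the myotubularin phosphatases, had groups that overlapped, at 33.9 to 37.5 CPM in controls and 34.5 to 39.0 in knockouts. Dennd6b, an activator of Rab proteins, and Rabl2, a small GTPase of cilia, had log2 fold changes of -0.19 ± 0.23 and 0.26 ± 0.29. Shank3, a scaffold of synapses, had 154 to 168 counts per control and 155 to 174 per knockout library, with a log2 fold change of -0.0013.

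The head-to-head pair Lmf2 and Ncaph2, whose shared start region is printed above, hardly differed between the groups. Lmf2, thought to help lipases mature in the endoplasmic reticulum, had 38.8, 33.3 and 35.5 CPM in controls against 37.1, 34.6 and 32.3 in knockouts. The fold was 0.968 (95% interval 0.798 to 1.17, adjusted p = 0.861, edgeR). Ncaph2, a subunit of condensin II, which compacts chromosomes, had 32.4, 35.3 and 36.4 CPM in controls against 38.1, 31.8 and 36.3 in knockouts (fold 1.02, 0.838 to 1.24). For both genes the interval leaves out changes of 1.5-fold in either direction.

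Sco2, a copper chaperone for cytochrome oxidase in mitochondria, and Tymp, the thymidine phosphorylase, overlap on the same strand, with 856 bases that are exon in both in GENCODE. Their counts were not whole in any of the 6 libraries, yet the sum of the 2 was whole in all 6 within 0.01, so reads were divided between them by estimation. The sums were 1969, 1427 and 1382 in controls against 1447, 1966 and 1500 in knockouts. Control replicate 1 and knockout replicate 2 were the high libraries, 1 in each group. Tymp received 32.8%, 26.4% and 33.7% of the sum in controls against 33.4%, 42.6% and 35.1% in knockouts.

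**Figure D3:**
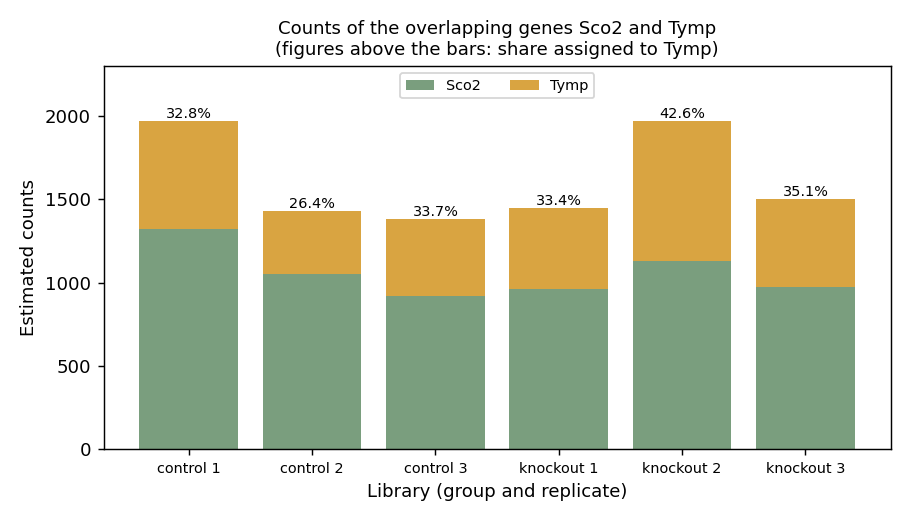
Estimated counts of Sco2 and Tymp stacked per library, with the share assigned to Tymp above each bar. Bars reach from 1382 to 1969, and the 2 tallest are control replicate 1 and knockout replicate 2.

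Taken alone, Sco2 had CPM of 88.8, 54.3 and 47.6 in controls against 51.8, 64.5 and 55.3 in knockouts, a log2 fold change of -0.15 ± 0.22 (adjusted p = 0.745, edgeR) that became 0.17 without control replicate 1. Tymp had 43.3, 19.5 and 24.1 CPM in controls against 26.0, 47.8 and 29.9, a log2 fold change of 0.26 ± 0.31 (adjusted p = 0.679) that became -0.048 without knockout replicate 2. Counted as 1 gene, the pair had a log2 fold change of -0.010 ± 0.25, with a 95% interval of -0.57 to 0.55. A sum hides opposite changes in its parts, so it does not bear on the division of reads. The signs of Sco2 and Tymp each turned when 1 library was left out, and the share assigned to Tymp was not tested. Ncaph2 overlaps Sco2 from the other strand, with 829 shared exon bases, and its counts were whole in all libraries. Odf3b, a sperm tail gene just beyond Tymp, was at 6.28 ± 2.85 CPM in controls and 4.01 ± 1.95 in knockouts (SD, n = 3; adjusted p = 0.421, edgeR).

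Of the metabolic genes, Chkb encodes a choline kinase of phosphatidylcholine synthesis and Cpt1b the muscle form of the carnitine palmitoyltransferase that admits fatty acids to mitochondria. Chkb had CPM of 42.5, 22.7 and 24.4 in controls against 32.3, 35.3 and 32.4 in knockouts. Its highest library was control replicate 1, and both other controls lay below all knockouts. The log2 fold change of 0.16 ± 0.22 (adjusted p = 0.722, edgeR) became -0.0026 without control replicate 2. Cpt1b had 4.90, 2.48 and 2.33 CPM in controls against 5.27, 5.14 and 3.98 in knockouts, and control replicate 1 was again the highest control. Its log2 fold change was 0.59 ± 0.29 (adjusted p = 0.314), and without control replicate 1 it was 0.99 and passed (adjusted p = 0.0475); it is named here after its values were seen. Arsa, the lysosomal sulfatase of sulfatides, had 38.7, 55.1 and 52.2 CPM in controls against 78.3, 52.9 and 51.4 in knockouts. Only knockout replicate 1 stood above the controls, and the adjusted p was 0.411. Its log2 fold change of 0.32 became 0.10 without that library.

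Control replicate 1 was at an end of the order in many of these genes. It was the highest of the 6 libraries in 11 and the lowest in 6 of the 25 tested flanking genes, or 68.0% at either end, against 55.2% of all tested genes. Across the 25 genes its deviation from the control mean had a Spearman's rho of -0.45 with the length of the longest coding transcript, where control replicates 2 and 3 had 0.29 and 0.38 and the knockouts 0.24, -0.12 and 0.15. The deviations of the 3 controls are taken from their own mean, so a negative coefficient in 1 control favours positive ones in the others. No coefficient over all tested genes was computed. The genes share a library in each value, so the coefficients are a description. It was the lowest library in Brd1, Trabd, Plxnb2, Ppp6r2, Sbf1 and Arsa. Without it the log2 fold change was 0.28 in place of 0.36 in Brd1, 0.11 in place of 0.23 in Plxnb2, 0.18 in place of 0.32 in Arsa and -0.013 in place of 0.092 in Trabd. The values of Chkb and Ttll8 were larger without it, at 0.50 and 0.99, and missed the threshold (adjusted p = 0.0582 and 0.0555, edgeR).

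**Figure D4:**
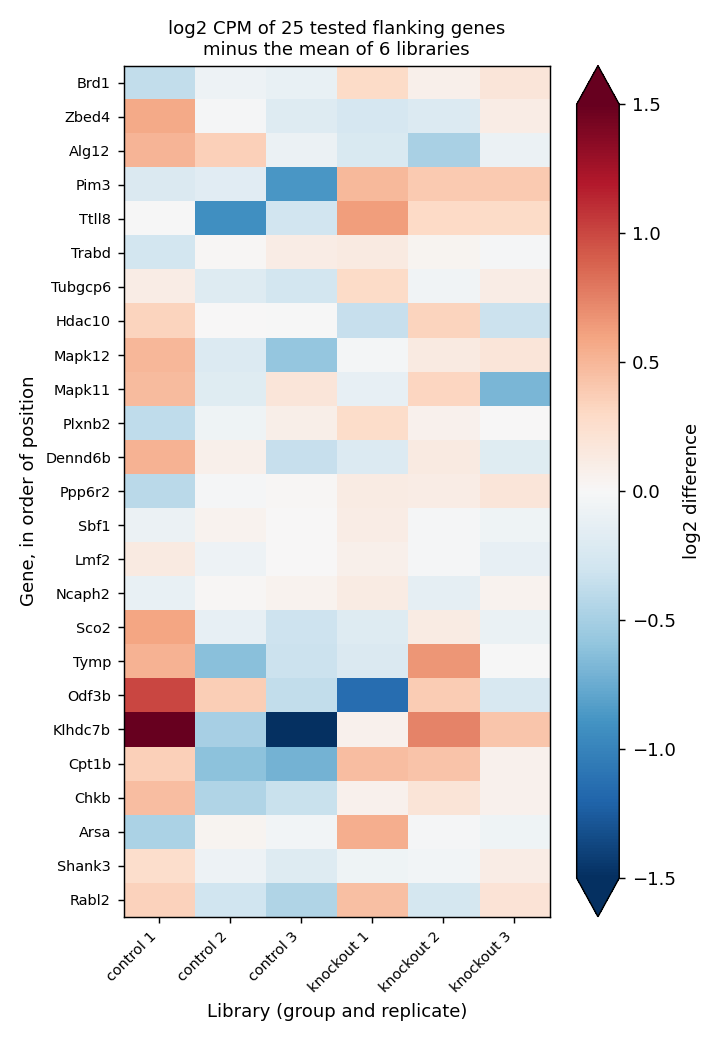
log2 CPM of the 25 tested flanking genes, in order of position, minus the mean over the 6 libraries, with colours limited to ± 1.5. Control replicate 1 departs from the mean in most rows, upward in Odf3b (1.00) and downward in Arsa (-0.47).

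As a group, 16 of the 25 tested flanking genes had values above 0 and 9 below, where 47.8% of all tested genes were positive. The median log2 fold change was 0.14 against -0.018 over all tested genes and -0.037 over the 442 other tested genes of chromosome 15. The quartiles of the flanking genes were -0.15 and 0.26, against -0.24 and 0.20 over all genes. Per library, the median deviation from the control mean was 0.26, -0.071 and -0.18 among controls, against 0.14, 0.14 and 0.12 among knockouts, which lay inside the range of the controls. The median was 0.039 without control replicate 2 and 0.040 without control replicate 3. On the rest of the chromosome 1 gene was called higher and 3 lower, 0.905% of 442.

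Levels spanned a wide range. On the FPKM scale 9 of the 31 flanking genes averaged at least 10 over the 6 libraries. In control livers Sco2 led with 65.8 ± 19.1 FPKM (SD, n = 3), followed by Selenoo, Trabd at 41.2 ± 7.28, Pim3 at 30.3 ± 7.72, Plxnb2 at 24.0 ± 4.82 and Chkb at 20.01 ± 6.10. Neighbours in that order from Selenoo to Chkb differed by less than the sum of their SDs, and the level of Sco2 rests on the division of reads with Tymp. In knockout livers Pim3 ranked 2, at 51.5 ± 3.11 FPKM and above Trabd, while Selenoo was at rank 14. Klhdc7b, a kelch-domain gene, was tested with only 2 to 23 counts per library, and its log2 fold change of 0.14 had an SE of 0.72.

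The 6 genes with too few counts to test were Gm33049, Miox, Syce3, Mapk8ip2, Acr and Syt10. Miox, the kidney enzyme that breaks down inositol, had 2 counts over the controls and 7 over the knockouts, 5 of these in knockout replicate 2. Acr, the protease of the sperm acrosome, had 2 and 2. Syce3, of the synaptonemal complex of meiosis, Mapk8ip2, a scaffold of JNK signalling, and Syt10, a synaptotagmin, had 0 counts over the controls and 1 over the knockouts. A library without counts allows up to 3 counts, or 0.155 to 0.201 CPM, and this covers counting error only. For these genes no difference was detectable at this depth.

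Relatives of the flanking genes elsewhere in the genome were read from the same fit. Of 30 listed, 27 were tested and 0 passed in either direction in edgeR's test, where 1.49% of all tested genes did. Values were positive in 14 and negative in 13, with a median of 0.017 on the log2 scale. Before adjustment, 5 of the 27 had edgeR p-values below 0.05, where the background over all tested genes was 18.5%. DESeq2 called 0, against 5.26% of all its genes. Those 5 relatives are named next because of their p-values, and the comparison of their signs with flanking genes is a description only. Pim1, another kinase of the PIM family, had a log2 fold change of 0.49 ± 0.14 (adjusted p = 0.117). Cpt1a, the liver form of the enzyme that Cpt1b encodes in muscle, had 0.45 ± 0.18 (adjusted p = 0.231), and the sulfatase gene Arsb 0.38 ± 0.14 (0.199). Plxnb1 (-0.35 ± 0.12, adjusted p = 0.183) had the opposite sign to Plxnb2, and Brpf1 (-0.32 ± 0.14, adjusted p = 0.248) the opposite sign to Brd1. Among gamma-tubulin complex genes other than Tubgcp6, the values ran from -0.42 in Tubgcp3 to 0.063 in Tubgcp4.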

How the data were processed

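Whole-liver RNA of 3 knockout and 3 control samples was sequenced. HISAT2, Bowtie2 and RSEM 1.3.1 were used on GRCm38, per the submitters' processing notes, in an order and with a strand setting not given in the sources used here. Deposited by the authors were estimated counts, FPKM and TPM per gene and library, their group means, and DESeq2 log2 fold changes, p-values and q-values, per the file headers. TPM was not used.

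Estimated counts (4.55% to 4.98% per library not whole by over 0.01) were rounded. Genes were filtered with filterByExpr, which left 12173, and scaled with TMM. Genotype was the only term in edgeR 4.0.16 (R 4.3.3, quasi-likelihood F test), with Benjamini-Hochberg adjustment over all tested genes at 0.05. Standard errors come from the F statistic and intervals from its degrees of freedom. The script was tested on simulated data.

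Members, gene lists, tests and the rule for named genes were chosen with earlier results of these data known. Named were Selenoo, flanking genes called or with an unadjusted p under 0.05, those within 50 kb and the 6 others with the highest mean FPKM; the rest are given in brief. Coordinates are those of the file. Strands are GENCODE's on GRCm38, which differ from the file in 5 of 31 genes (Ttll8, Plxnb2, Dennd6b, Tymp and Syt10). Alternatives were DESeq2 1.42.0, limma 3.58.1 (voom, and trended fits to log2 FPKM with a pseudocount of 1 or 0.1), other scalings and filters, a replicate block, an adjusted p of 0.1 and each library left out. Counting Sco2 and Tymp as 1 gene was chosen after seeing the data. Hdac10, Cpt1b, Klhdc7b and Acr had no promoter window.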

Additional observations from a re-analysis of the deposited data

How the results depend on the processing

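Calls over all tested genes numbered 181 and depended on the setting: 330 without the low-count filter, 634 with DESeq2, 110 with limma on log2(FPKM + 1), 513 at an adjusted p of 0.1, and 43 to 668 with 1 library left out. On log2(FPKM + 0.1) the split was 52 higher and 74 lower, against 94 and 87. Of the flanking genes 0 were called, and 1, Pim3, was called without the low-count filter, with DESeq2 and at an adjusted p of 0.1; with 1 library left out the count was 0 to 2. With the replicate number as a block, 87 genes were called over all and 0 among the flanking genes, and the adjusted p of Pim3 was 0.119. Same-numbered libraries had correlations of -0.16, -0.079 and -0.076, and no library correlated best with its own number. The values were taken from each group's own mean, which ties the coefficients to each other. They therefore cannot show whether the numbers pair the samples. The median of the flanking genes stayed positive, from 0.020 to 0.22, in the alternatives run. Signs of genes near 0 turned when 1 library was left out, with ranges of -0.013 to 0.18 in Trabd, -0.098 to 0.014 in Lmf2, -0.32 to 0.17 in Sco2, -0.0026 to 0.50 in Chkb, -0.071 to 0.48 in Mapk12 and -0.048 to 0.67 in Tymp. Tymp was at -0.010 when counted with Sco2. The cause was not tested. Among the tested flanking genes Mapk11 and Klhdc7b had the fewest counts, under 25 per library, and the 6 untested genes had fewer.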
